A study of Mus with 6 samples.

Results

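Genes that write, read and erase marks on histones and DNA, and genes that move nucleosomes, were described in leukaemic stem cells with and without Klf4. They were taken as all probes whose platform symbol begins with Hdac, Sirt, Kdm, Kmt, Setd, Smarc, Chd and a digit, Brd and a digit, Dnmt, or Tet 1 to 3. The rule matched 208 probes. Of these, 1 carried several symbols and was set aside, which left 207 probes of 88 genes, out of 34885 probes of 19057 genes that carried 1 symbol. The RNA came from bone marrow of C57BL/6 mice with chronic myeloid leukaemia driven by BCR-ABL p210 in both groups. GFP+ cells with the lineage- Sca-1+ c-Kit+ (LSK) phenotype were sorted 14 days after transplantation. The groups were wild type for Klf4 (WT, n = 3 arrays) and Klf4 deficient (n = 3 arrays). The Klf4 allele, the driver of its deletion, the ages of the animals and any pooling are not given in the labels. Whether the 3 arrays of a group come from separate mice is not stated either, so each p-value reflects the scatter among these arrays and that scatter may be technical.

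Histone deacetylases remove acetyl groups from lysines and tend to silence genes, and the sirtuins do the same with NAD as a cofactor. Lysine methyltransferases (KMT, SETD) and demethylases (KDM) set and remove methyl marks that go with active or silent chromatin depending on the lysine. Bromodomain proteins bind acetylated histones, the SWI/SNF, ISWI and CHD families use ATP to slide or evict nucleosomes, and DNA methyltransferases and TET dioxygenases add and oxidise methyl groups on cytosine. In blood stem cells these enzymes help to balance self-renewal against differentiation, and several are mutated or targeted by drugs in leukaemia.

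Each value is a bead array intensity as deposited, on a linear scale in arbitrary units, and can lie below 0. Values below 32 were set to 32 (the floor) before taking log2, and a probe was tested when it exceeded 32 on at least 1 array. Between 7082 and 7214 probes per array did so. WT replicate 3 stood apart, with Pearson r of 0.29 to 0.30 with the other 5 arrays across tested probes, which are not independent, where the others correlated at 0.66 to 0.72. Where leaving it out moved a difference of a main probe by over 1.5 times or turned its sign, the value without it is given too. Of 18 values of the 3 Klf4 probes, 1 exceeded the floor (51.9 in WT replicate 2), so these probes gave no check of the Klf4 labels, and whether they lie in the deleted region is not known here. Of 11 LSK markers with a probe, 8 exceeded the floor on some array (Mycn, Slamf1 and Erg did not). On single arrays fewer did, namely 3, 2 and 2 in WT replicates 1 to 3 and 4, 4 and 6 in Klf4-deficient replicates 1 to 3. Summed LSK intensities were 1010 to 1492 in WT and 676 to 1139 in Klf4-deficient arrays, so counts and sums ran in opposite directions. Ly6a, which encodes Sca-1, was not analysed here. Summed erythroid marker intensity (8 genes, 7 above the floor, Epor not) was 2717 to 4351 in WT and 4913 to 5401 in Klf4-deficient arrays. Summed T and NK markers (8 genes, 7 above the floor) were 114 to 341 in WT and 310 to 429 in Klf4-deficient arrays. B cell sums were 34.9 to 95.8 and 64.6 to 150.3 (2 of 6 markers above the floor, Cd79b, Ms4a1, Pax5 and Igll1 not). Neutrophil sums (9 of 11 markers) were 2682 to 7523 and 2208 to 3185, monocyte sums (5 of 7) 86.7 to 587.1 and 139.9 to 180.7, and stroma and endothelium sums (5 of 8) 60.1 to 617.1 and 69.4 to 121.8, each highest in WT replicate 3. The part of these cell types in any result below was not tested.

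Of the 207 chromatin probes, 107 probes of 66 genes exceeded the floor on at least 1 array. Most were seen on few arrays. For 44 of the 107 (41.1%) a single array held the only value above the floor, against 46.8% of all 18270 probes tested, and 9 probes were above it on all 6 arrays. The arrays differed in how many chromatin probes they lit. WT replicate 1 held 60 of the 107 above the floor and WT replicate 3 held 30, that is 56.1% and 28.04%, against 39.5% and 38.8% of all tested probes on the same arrays. In WT replicate 3 alone, 11 chromatin probes were at the floor while the other 5 arrays were above it (10.3%, against 7.99% of all tested probes). The opposite pattern, a value above the floor in WT replicate 3 only, was seen for 5 chromatin probes (4.67%, against 18.2% of all tested probes). In bulk RNA, fewer cells that express a gene and less RNA per cell cannot be told apart.

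**Figure D1:**
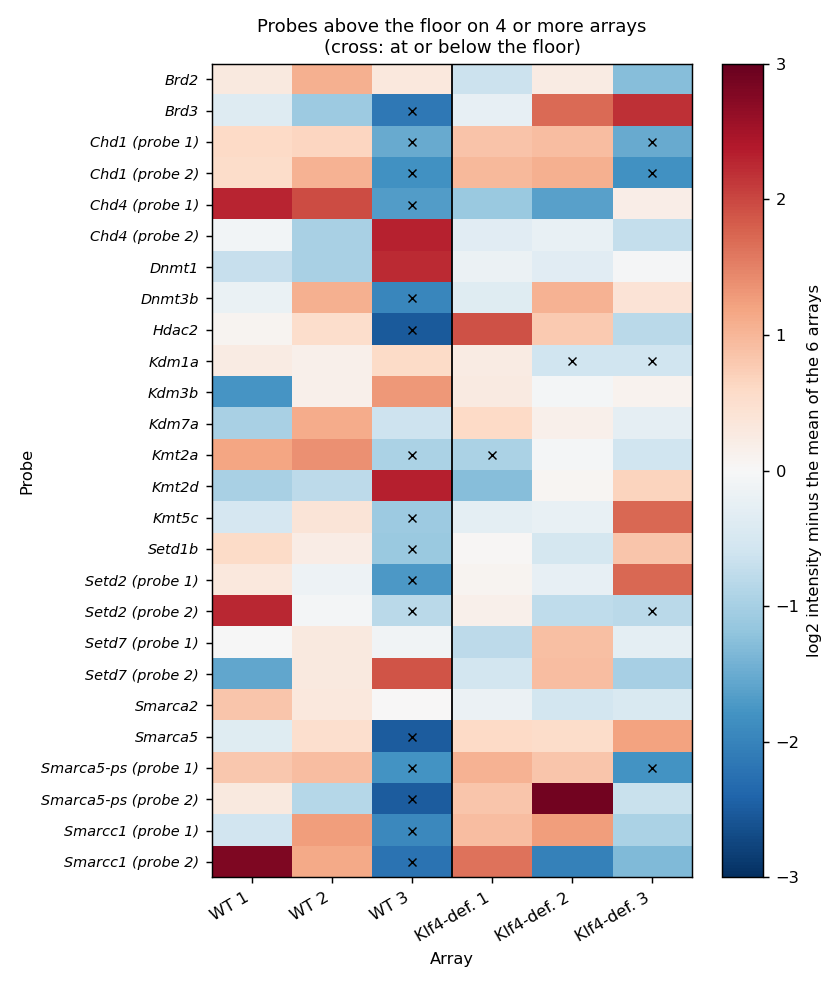
Heat map of the 26 chromatin probes above the floor on 4 or more arrays; columns are the 6 arrays, colour is log2 intensity minus the mean of the 6 arrays, and a cross marks a value at or below 32. The WT 3 column carries most of the crosses, while Dnmt1, Kmt2d, Kdm1a, Kdm3b, a Chd4 probe and a Setd7 probe have their highest value there.

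The comparison asks whether loss of Klf4 alters the transcripts of chromatin enzymes in this fraction. At an adjusted p below 0.05, limma called 0 of the 107 chromatin probes, and 0 of the 18270 probes tested (0%). An unadjusted p under 0.05 was reached by 1 chromatin probe higher in Klf4-deficient arrays and 2 lower, against 1.46% and 0.575% of all tested probes; the ordinary t statistic called 0 chromatin probes. With values below the floor set to it, the 3 Klf4-deficient values lay wholly above the 3 WT values for 2 chromatin probes, 1.87% against 2.13% of all tested probes. They lay wholly below for 4 chromatin probes, 3.74% against 0.958%. The 2 higher ones were Brd3 and Smarca5, and the 4 lower ones Brd2, Smarca2, Kdm2b and Setd4. Over the 107 probes, 59 differences were above 0 and 48 below, with a median of 0.07 (log2), against 8374 and 9895 and a median of -0.05 over all tested probes. The median over chromatin probes was 0.08 without WT replicate 3, where that of all probes was 0.06.

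**Figure D2:**
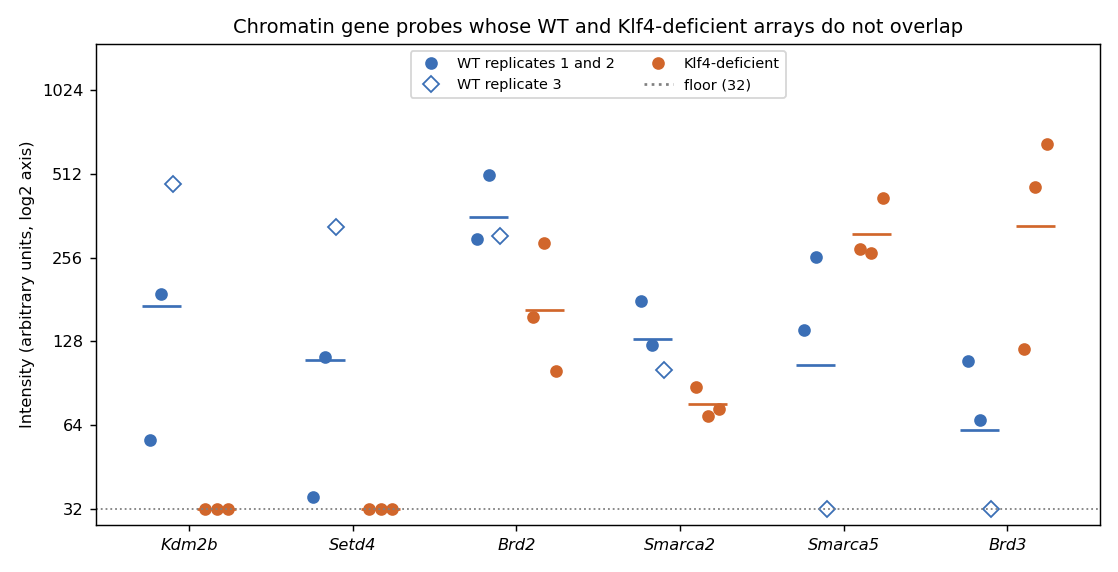
Intensity of the 6 chromatin probes whose groups do not overlap, on a log2 axis with values below 32 drawn at 32; points are arrays, the open diamond is WT replicate 3, and bars are means of log2 values. Kdm2b and Setd4 lie at the floor in all Klf4-deficient arrays, and the gap between groups is narrow for every probe but that of Kdm2b.

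Bromodomain proteins held both directions. Brd2, a BET family reader of acetylated histones, was at 297.7, 508.6 and 305.6 on the WT arrays, against 157.1, 289.7 and 100.3 on the deficient ones. All WT values were above all Klf4-deficient values, but the lowest WT and the highest Klf4-deficient value were close. The difference was -1.11 ± 0.47 log2 units (± SE, 3 arrays a side, limma adjusted p = 0.71), or 2.16-fold lower, and -1.23 without WT replicate 3. The other Brd2 probe stayed below the floor everywhere. Brd3, a BET family paralogue, was at 108.5, 66.6 and 13.4 on the WT arrays, against 120.6, 460.4 and 653.8 on the deficient ones. Klf4-deficient replicates 2 and 3 were far above WT, while replicate 1 was just above WT replicate 1. Brd3 was thus 5.39-fold higher (2.43 ± 0.80 log2, limma adjusted p = 0.71), and 3.90-fold higher without WT replicate 3, the WT array at the floor. Of 9 tested bromodomain probes, 6 were above 0 and 3 below, with a median of 0.20 that lay between -0.29 and 0.64 over the alternatives. Brd8dc stayed below the floor.

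Of 12 tested probes of SWI/SNF and ISWI genes, 1 was higher and 1 lower with groups apart. The shares over all tested probes were 2.13% and 0.958%, and counts this small are not a result about the family. Smarca2, which encodes BRM, an ATPase of SWI/SNF, was at 178.5, 124.3 and 101.1 on the WT arrays, against 87.7, 68.7 and 73.3 on the deficient ones on probe ILMN_3154810. Every array was above the floor and the groups did not overlap. The difference was -0.78 ± 0.27 log2 units (± SE, 3 arrays a side, limma adjusted p = 0.71), 1.72-fold lower, with WT replicate 3 the lowest WT array, and 1.96-fold lower without it. A second Smarca2 probe, chosen after its values were seen, was at 169.5, 25.1 and 430.1 on the WT arrays, against 26.2, 21.5 and 36.9 on the deficient ones (-1.98 ± 0.97, and -1.13 without WT replicate 3), so both tested probes were lower on average, and the other Smarca2 probes stayed below the floor. Smarca4, which encodes the alternative ATPase BRG1, was at 35.3, -9.3 and -3.6 on the WT arrays, against 35.7, -7.5 and 25.7 on the deficient ones. It was just above the floor on 1 array of each group, and no difference was detectable at this signal.

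Smarca5, which encodes SNF2H, the ATPase of ISWI complexes, was at 140.4, 256.2 and 1.1 on the WT arrays, against 274.1, 265 and 419.3 on the deficient ones. Klf4-deficient values lay above WT, narrowly for WT replicate 2 and widely for WT replicate 3, the array at the floor. The difference of 1.58 ± 0.82 log2 units (± SE, 3 arrays a side, limma adjusted p = 0.71), or 2.98-fold, was 1.65-fold (0.72) without WT replicate 3. The symbol rule also brought in Smarca5-ps, a copy whose name marks it as a Smarca5 pseudogene, so signal of the 2 genes cannot be told apart here. Its probes, given after their values were seen, differed by 2.05 ± 1.16 and 0.04 ± 1.12 (1.31 and -0.85 without WT replicate 3), and each was at the floor in that array. Smarcc1, a scaffold subunit of SWI/SNF, had probes of opposite sign. One was at 81.6, 292.3 and 10.4 on the WT arrays, against 233.2, 291.7 and 62.8 on the deficient ones (0.83 ± 1.02, and 0.07 without WT replicate 3). The other was at 1021.6, 325 and -1.1 on the WT arrays, against 456.6, 36 and 59 on the deficient ones (-1.15 ± 1.62, and -2.54 without WT replicate 3). WT replicate 3 was at the floor on both, and the groups overlapped on both. Of 12 tested probes of this family 6 were above 0 and 6 below (median -0.06, between -0.30 and 0.14 over the alternatives), and Smarcb1, a core subunit, was read between -12 and 11.5 on its only probe.

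Lysine demethylases held the chromatin probe with the lowest difference of the 107. Kdm2b, a demethylase of histone H3 that also recruits a Polycomb complex to unmethylated CpG islands, was at 56.4, 188.9 and 472.4 on the WT arrays, against 24.3, 12.1 and -2.3 on the deficient ones on probe ILMN_2479611. All WT arrays were above the floor and no Klf4-deficient array was. Kdm2b was at least 5.36-fold lower (-2.42 ± 0.79 log2 ± SE, 3 arrays a side, limma adjusted p = 0.71) and at least 3.23-fold lower without WT replicate 3, its highest array. The other Kdm2b probes stayed below the floor on all arrays, so 1 probe carries this value. Kdm1a, the LSD1 demethylase whose inhibitors act on leukaemic stem cells, was at 58.1, 54 and 72.7 on the WT arrays, against 57.7, 13.7 and 4.6 on the deficient ones. Klf4-deficient replicate 1 lay within the WT range and the others at the floor (-0.65 ± 0.31, limma adjusted p = 0.71).

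The other demethylases were mostly seen on 1 array or followed no group. Kdm7a, a demethylase of silent histone H3 marks, was at 648.7, 2741.6 and 833.4 on the WT arrays, against 1932, 1405.4 and 1055.2 on the deficient ones on probe ILMN_1231072 (0.32 ± 0.62, and 0.09 without WT replicate 3). All Klf4-deficient values lay between the lowest and the highest WT value. Its other tested probes differed by -0.39 ± 0.26 and -0.89 ± 0.80 (-0.17 and -1.34 without WT replicate 3), and no deficient array passed the floor on either, which makes each a bound. Kdm3b, a demethylase that favours active chromatin, was at 60.1, 228.9 and 500.3 on the WT arrays, against 247.9, 196 and 219.5 on the deficient ones (0.21 ± 0.80, and 0.91 without WT replicate 3), again inside the WT range, and differed by -0.35 (-0.53 without WT replicate 3) on a probe lit only in WT replicate 1. Kdm5a, a demethylase of an active promoter mark, had 4 tested probes. One reached 528.9 in Klf4-deficient replicate 2 with all other arrays at the floor (1.35 ± 1.19), and the others differed by 0.15 ± 0.79 (-0.15 without WT replicate 3), -0.07 ± 0.16 and -0.12 ± 0.18. The brightest of these last, ILMN_1260532, was at 39, 92.6 and -9.6 on the WT arrays, against 154.6, 11.7 and -1 on the deficient ones, with the highest value in a deficient array and the rest overlapping. Kdm2a, a paralogue of Kdm2b, differed by 0.66 ± 0.60 on a probe above the floor only in Klf4-deficient replicate 1 (126) and by -0.07 ± 0.26 (-0.17 without WT replicate 3) on one lit in WT replicate 1 (49.3) and Klf4-deficient replicate 1 (42.5). Over the 26 tested demethylase probes of 14 genes, 17 differences were above 0 and 9 below, with a median of 0.23 that stayed at or above 0 in all alternatives (0 to 0.34). Alternatives that change only the test statistic or add a replicate block could not move this median. Kdm4c, Kdm4d, Kdm6a and Kdm6b stayed below the floor on all arrays.

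**Figure D3:**
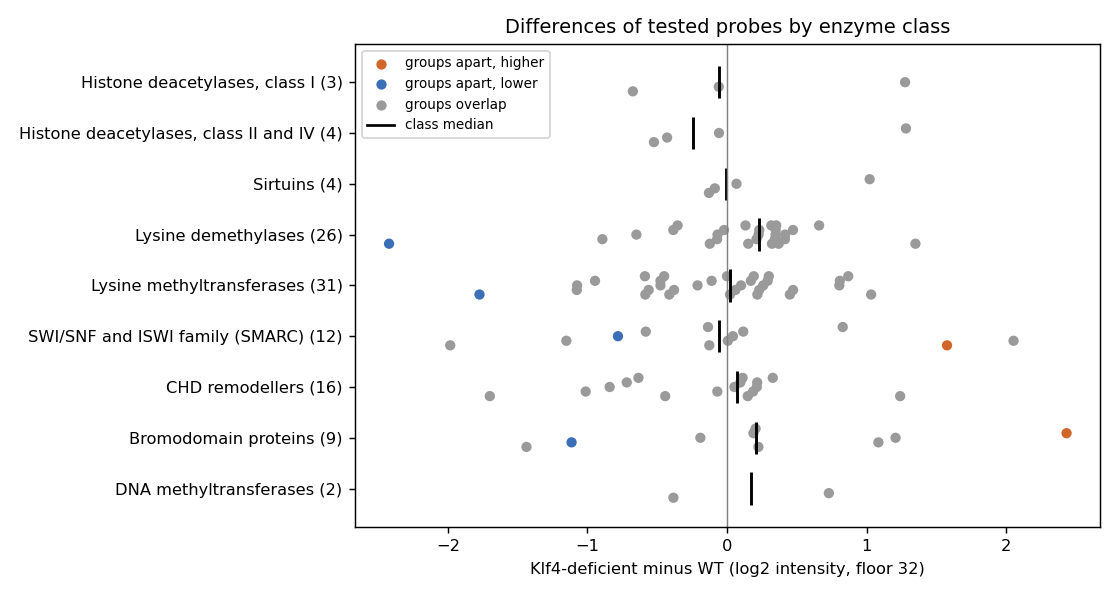
Difference between Klf4-deficient and WT arrays (log2) for each of the 107 tested chromatin probes by enzyme class, with the number of tested probes in brackets and the class median as a black bar. Coloured points are the 6 probes whose groups do not overlap; class medians lie between -0.24 and 0.23, and no probe was called.

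Among 31 tested probes of lysine methyltransferases, 1 had groups that did not overlap, lower in Klf4-deficient arrays. The share over all tested probes was 0.958%, so this count is not a result about the class. Setd4, a SET domain protein linked to stem cell quiescence, was at 35.3, 112.2 and 330.5 on the WT arrays, against 30.1, 19.2 and 29.9 on the deficient ones. WT replicate 1 barely passed the floor and no Klf4-deficient array did. Setd4 was at least 3.42-fold lower (-1.77 ± 0.83 log2 ± SE, 3 arrays a side, limma adjusted p = 0.71), and at least 1.97-fold lower without WT replicate 3. Its second probe stayed below the floor on all arrays, highest at 26.6 in WT replicate 3 and 25.8 in Klf4-deficient replicate 1. Setd1a, a catalytic subunit of a complex that methylates histone H3 at active promoters, was at 30.2, 24.6 and 35 on the WT arrays, against 58.1, 49.1 and 16.3 on the deficient ones (0.45 ± 0.27), with 2 Klf4-deficient arrays above all WT arrays and the last at the floor.

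Kmt2a, the MLL1 methyltransferase required by haematopoietic stem cells, was at 139.2, 159.5 and 17.9 on the WT arrays, against 12.6, 58.7 and 40.5 on the deficient ones on probe ILMN_1218169. WT replicates 1 and 2 were above every Klf4-deficient array, and WT replicate 3 was at the floor. The difference was -1.07 ± 0.70 log2 units (± SE, 3 arrays a side, limma adjusted p = 0.71) and -1.81 ± 0.34 without WT replicate 3 (limma adjusted p = 0.63). Its other probe exceeded the floor only in Klf4-deficient replicate 2 (194.5), a difference of 0.87 ± 0.77. Setd2, which deposits a mark of transcribed gene bodies, had probes of opposite sign. One was at 133.4, 96.2 and 5.3 on the WT arrays, against 112.8, 89.3 and 348.4 on the deficient ones (1.03 ± 0.77, and 0.42 without WT replicate 3), with Klf4-deficient replicate 3 alone above WT replicate 1. Another was at 269.3, 54 and 10 on the WT arrays, against 62.2, 32.7 and 17.4 on the deficient ones (-0.95 ± 0.87, and -1.58 without WT replicate 3), and the last differed by 0.29 ± 0.23 with all WT arrays at the floor.

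Kmt2d, a methyltransferase of enhancers, was at 113.4, 128.8 and 1131.3 on the WT arrays, against 91.5, 232.2 and 353 on the deficient ones. It was highest in WT replicate 3, and its difference turned from -0.38 ± 1.08 to 0.70 without that array. Setd7, a monomethyltransferase, was above the floor on all arrays on probes ILMN_2522571 (69.9, 251.3 and 762.7 in WT, 141, 388.3 and 103.5 in Klf4-deficient) and ILMN_1258450 (65.8, 81.9 and 61.7 against 38.9, 125.5 and 54.1). The groups overlapped on both (-0.41 ± 1.02 and -0.11 ± 0.48, or 0.43 and -0.19 without WT replicate 3). Kmt2b, a paralogue of Kmt2a, differed by -0.59 ± 1.14 on a probe that read 362.4 in WT replicate 3 and 103.7 in Klf4-deficient replicate 1, and by 0.58 without WT replicate 3. Its other probe was lit only in Klf4-deficient replicate 2 (85.5, a difference of 0.47 ± 0.44). Kmt2c, a paralogue of Kmt2d, differed by -0.59 ± 0.39, -0.45 ± 0.42 (-0.68 without WT replicate 3) and 0.17 ± 0.21 on its 3 tested probes, and Setd3, an actin histidine methyltransferase, by 0.81 ± 0.57 and -0.21 ± 0.35 (-0.38 without WT replicate 3). Of 31 tested probes of 16 genes in this class, 16 were above 0 and 15 below (median 0.02, between -0.40 and 0.18 over the alternatives). It was the class with the highest share of its probes above the floor, 77.5%, against 40.3% of all probes on the array, and Setdb1 was the only gene of the class with none.

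CHD remodellers were led by Chd4, the ATPase of the NuRD complex, which couples remodelling to deacetylation. Its probe ILMN_2654822 was at 496.3, 398.5 and 6.1 on the WT arrays, against 47.3, 33.1 and 118 on the deficient ones. WT replicates 1 and 2 were well above all Klf4-deficient arrays, while WT replicate 3 was at the floor. The difference was -1.70 ± 1.22 log2 units (± SE, 3 arrays a side, limma adjusted p = 0.71), and 7.81-fold lower without WT replicate 3 (-2.97 ± 0.63, limma adjusted p = 0.76). A second Chd4 probe, ILMN_2697652, did not follow it. It was at 164.1, 87.4 and 855.4 on the WT arrays, against 136.1, 148.8 and 105.4 on the deficient ones, and its difference of -0.84 ± 0.88 became 0.10 without WT replicate 3. On this probe WT replicate 3 was the highest array, on the first the lowest. The remaining tested Chd4 probe was lit only in Klf4-deficient replicate 2 (40.3, a difference of 0.11 ± 0.18).

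Chd2, a remodeller of active genes, read 421.4 in Klf4-deficient replicate 1 on probe ILMN_1213322 with all other arrays at the floor (1.24 ± 1.09). Chd9 differed by -0.72 ± 0.57 (-0.12 without WT replicate 3), -0.44 ± 0.42 and 0.33 ± 0.32 on its tested probes, with its highest value, 132.3, in WT replicate 3. Chd1, a remodeller that acts with transcribing polymerase and is given here after its values were seen, had probes that read alike but did not follow the group. On one probe it was at 165.6, 234.6 and -9.2 on the WT arrays, against 221.4, 238.7 and -15.3 on the deficient ones, and on another 137.9, 143.2 and -16.1 against 166, 175 and -7.8. The third replicate of each group was below 0 on both probes, and the other 4 arrays were high. Of 16 tested CHD probes, 9 were above 0 and 7 below (median 0.07, between -0.72 and 0.17 over the alternatives), and Chd3 stayed below the floor.

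Histone deacetylases and sirtuins were mostly below the floor. Of 8 class I, 13 class II and IV and 11 sirtuin probes, 3, 4 and 4 were tested, with medians of -0.06, -0.24 and -0.01. Over the alternatives these ran from -0.41 to 1.27, from -0.62 to 0.36 (the value without WT replicate 3) and from -0.35 to 0.67. The 1.27 is that of 1 probe, of Hdac2, left when probes had to pass 32 on at least 3 arrays. The 0.36 rests on 2 probes. Hdac2, a class I deacetylase of the Sin3 and NuRD complexes, was at 192.9, 263.1 and -4.5 on the WT arrays, against 690.6, 317 and 105.1 on the deficient ones. Klf4-deficient replicates 1 and 2 were above all WT arrays and replicate 3 was below WT replicates 1 and 2. The difference of 1.27 ± 1.09 log2 units (± SE, 3 arrays a side, limma adjusted p = 0.71) was 0.34 without WT replicate 3. Hdac3, the deacetylase of the NCoR complex, passed the floor in WT replicate 2 (51.5) and Klf4-deficient replicate 1 (45.5) and differed by -0.06 ± 0.29 (-0.17 without WT replicate 3). Hdac8 was above the floor only in WT replicate 3 (130.2), and Hdac4 only in Klf4-deficient replicate 3 (459.2, with -9.3 and -0.1 in the others of its group). The other probes of Hdac2, Hdac3, Hdac4 and Hdac8 stayed below the floor on all arrays. Hdac10, which deacetylates polyamines, read 70.5, 6.5 and 43.2 in WT and 4.2 to 8.3 in Klf4-deficient arrays, a difference of -0.52 ± 0.33. Hdac6, Hdac7 and Hdac11 stayed below the floor, and Hdac1 was not analysed here.

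Sirt3, the main mitochondrial deacetylase, was at 24.6, -2.5 and 16.8 on the WT arrays, against 109.2, 31.3 and 78.4 on the deficient ones. As deposited, all 3 Klf4-deficient values were above all WT values, though only 2 passed the floor. With values below the floor set to it, the groups were not apart. A Kdm8 probe (ILMN_1244329) and a Kmt5a probe (ILMN_2603825) were also separate as deposited but not with the floor. The share of all probes that are separate as deposited is not given, so this is not a trait particular to Sirt3. Sirt3 was at least 2.03-fold higher (1.02 ± 0.49 log2 ± SE, 3 arrays a side, limma adjusted p = 0.71), and the difference ran from 0.65 to 1.53 on leaving out 1 array. Sirt1, a nuclear deacetylase of p53 that has been studied in chronic myeloid leukaemia stem cells, was at -1.7, 38.4 and -7.8 on the WT arrays, against -15.1, -8 and -11.7 on the deficient ones. It passed the floor on 1 array, and a difference was not detectable at this signal. Sirt2, Sirt4 and Sirt5 stayed below the floor.

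Among enzymes of DNA methylation, Dnmt1 and Dnmt3b were measured. Dnmt1, which copies methylation onto the new strand after replication, was at 424, 350.3 and 3217.5 on the WT arrays, against 602.6, 537.9 and 662.7 on the deficient ones. The Klf4-deficient arrays lay above WT replicates 1 and 2 and far below WT replicate 3. The difference was -0.38 ± 0.91 log2 units (± SE, 3 arrays a side, limma adjusted p = 0.84), and turned to 0.64 ± 0.22 without WT replicate 3 (1.55-fold higher, limma adjusted p = 0.84). Dnmt3b, a de novo methyltransferase, was at 109.3, 259 and 7.3 on the WT arrays, against 97.5, 255.3 and 165.7 on the deficient ones. The groups overlapped, and the difference of 0.73 ± 0.86 became -0.07 without WT replicate 3, the 1 array at the floor. The other Dnmt3b probe stayed below the floor everywhere. Dnmt3a, the other de novo enzyme and a frequent target of mutation in leukaemia, was read at most at 14.9 over its 3 probes. Dnmt3l, Tet1 and Tet3 also stayed below the floor, with highest values of 21.2, 0.3 and 19.5, and Tet2 was not analysed here.

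Without WT replicate 3 the groups did not overlap for 9 of 102 tested chromatin probes, 3 higher and 6 lower in Klf4-deficient arrays, or 2.94% and 5.88%, against 3.36% and 5.1% of all probes tested on those 5 arrays. The 6 probes named above are among these 9, which was fixed in advance, since dropping an array cannot make separate groups overlap. Dnmt1 (higher), Chd4 and Kmt2a (lower) joined them. The sign of the difference was the same with and without that array for 84 of the 102 probes. No chromatin probe was called by limma without it.

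**Figure D4:**
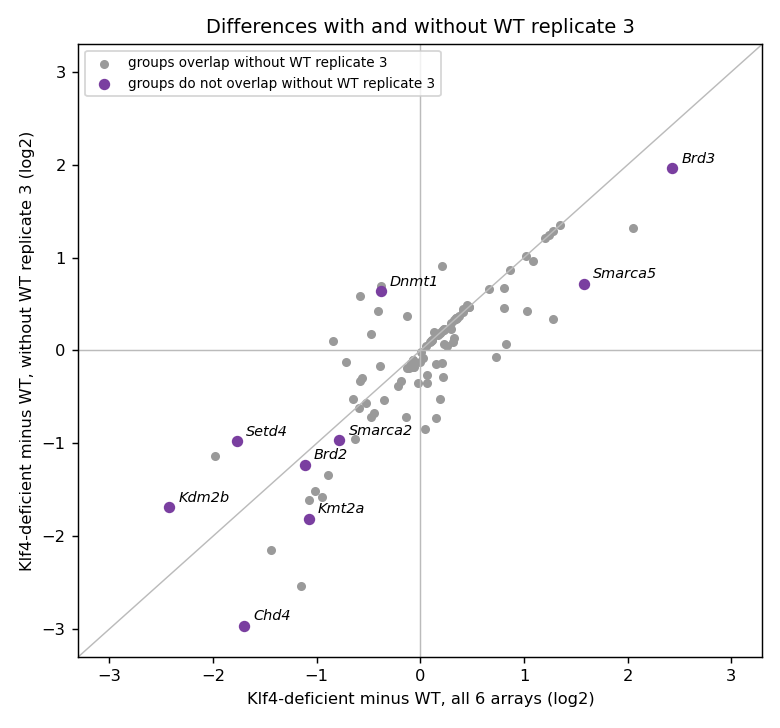
Difference between Klf4-deficient and WT arrays (log2) for 102 chromatin probes with all 6 arrays (x axis) against the same without WT replicate 3 (y axis); the diagonal marks equal values. Purple points are the 9 probes whose groups do not overlap on the 5 arrays; Dnmt1 lies in the quadrant where the sign turns.

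Probes of one gene often disagreed in sign, here and over the whole array. Of 28 genes with 2 or more tested probes, 12 had probes of opposite sign. The gap was 1.98 (log2) for Smarcc1 and Setd2, 1.94 for Kmt2a and 1.81 for Chd4. The share over all genes is not given for this count, which takes every tested probe of a gene. Comparing the probes with the highest means of each gene, 20 of 28 chromatin genes (71.4%) had the same sign, against 59.2% of 3148 genes over the whole array. The same array held the highest value of both probes for 9 of 28 genes (32.1%), against 32.02% of all genes. Which transcripts each probe detects was not analysed here.

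**Figure D5:**
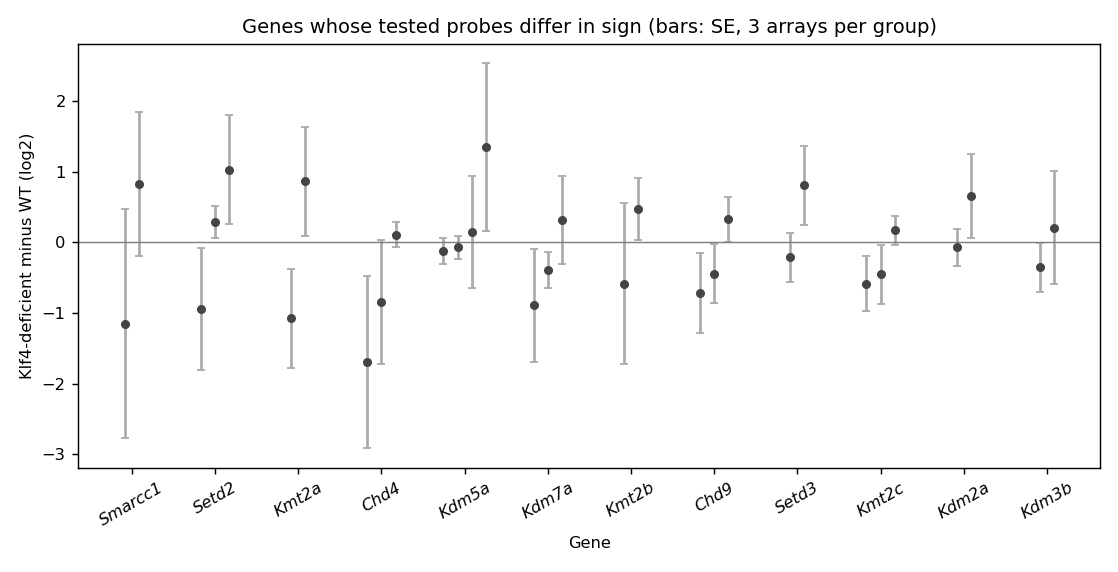
Difference between Klf4-deficient and WT arrays (log2) for each tested probe of the 12 genes with probes of opposite sign; points are probes and bars are SE with 3 arrays per group. For Smarcc1 the probes lie at 0.83 and -1.15.

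Partners of these enzymes, taken from lists of related genes, were also not called. Among genes of DNA methylation and its readers, 13 of 15 tested probes of 9 genes were below 0 and 2 above, with a median of -0.51, singled out after its values were seen; several probes share a gene. The median was -0.67 without WT replicate 3, -0.12 without WT replicate 2, and lay between -0.84 and -0.02 over the alternatives. Uhrf1, which guides Dnmt1 to newly replicated DNA, was at 34.6, 94.7 and 83.3 on the WT arrays, against 33.6, 11.7 and 18 on the deficient ones. The groups did not overlap, by the margin of 1 intensity unit between WT replicate 1 and Klf4-deficient replicate 1. The difference was -0.996 ± 0.43 log2 units (± SE, 3 arrays a side, limma adjusted p = 0.71). Its second probe differed by -1.35 ± 0.93. Mbd1, a reader of methylated CpG, differed by -1.17 ± 0.55 (-1.75 without WT replicate 3) on probe ILMN_2893081, where no deficient array passed the floor. On its other tested probe, where 2 deficient arrays did, the difference was -0.17 ± 1.20 (-0.89 without WT replicate 3).

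Of 38 tested probes of other histone methyltransferases, 23 were above 0 and 15 below (median 0.11). Prmt7, an arginine methyltransferase, was at 2326.6, 970.3 and 293.4 on the WT arrays, against 5447.3, 2754.5 and 4183.7 on the deficient ones, 4.56-fold higher without overlap (2.19 ± 0.81, limma adjusted p = 0.71) and at 1.40 without WT replicate 3, its lowest array. Its other tested probes differed by 0.24 ± 0.26 and -0.61 ± 0.81 (-1.17 without WT replicate 3). Nsd2, a methyltransferase linked to lymphoid cancers, differed by -1.11 ± 0.51 (-1.66 without WT replicate 3) on probe ILMN_1234959, with no deficient array past the floor. Its other tested probes had mixed signs, at -0.65 ± 0.59, 0.09 ± 0.17 and 0.43 ± 0.90 (the last 0.20 without WT replicate 3). Rbbp5, a core subunit of the KMT2 complexes named after its values were seen, was lower without overlap on 1 probe (-1.97 ± 1.00, and -0.88 without WT replicate 3). Its other tested probes were at -1.77 ± 1.04 (-0.65 without WT replicate 3) and -0.11 ± 0.17. Of 18 acetyltransferase probes, 8 were above 0 and 10 below (median -0.10). Crebbp, the CBP acetyltransferase, was at 57, 146.5 and -0.6 on the WT arrays, against 33.5, -0.9 and -7 on the deficient ones, and a second probe followed it closely with 52.4, 141.2 and -6.6 against 31.6, 1.9 and -6.9 (-0.99 ± 0.58 and -0.95 ± 0.57, or -1.49 and -1.43 without WT replicate 3).

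Of 30 probes of deacetylase complex partners, 19 were above 0 and 11 below (median 0.24). Sap30, a Sin3 complex subunit, differed by 1.31 ± 0.67, and Tbl1xr1, an NCoR complex subunit, by -1.004 ± 0.55 (-1.51 without WT replicate 3). Of 46 probes of other remodeller subunits, 21 were above 0 and 25 below (median -0.10), with the ATPases Atrx at -1.08 ± 0.48 and Ruvbl2 at -1.42 ± 0.77 (-2.24 without WT replicate 3), both with overlapping groups. The groups did not overlap for 2 of the 46 probes, 1 higher and 1 lower, named after their values were seen. Over all tested probes the shares were 2.13% and 0.958%, so these counts are not a result about this list. Ss18, a SWI/SNF subunit, was higher at 1.96 ± 1.20 (0.60 without WT replicate 3), with its other tested probe at -0.61 ± 0.55, and Actr8, an INO80 subunit, was lower at -1.90 ± 1.05 (-0.72 without WT replicate 3). Of 9 probes of other demethylases, 7 were above 0 and 2 below (median 0.43). Riox1 was at 1.99 ± 1.08 (1.15 without WT replicate 3) and, on a second probe, at 1.31 ± 1.24 (0.68 without WT replicate 3). Jarid2, a Polycomb cofactor, was at -0.83 ± 0.74 (-1.24 without WT replicate 3) on a probe above the floor only in WT replicate 2 (178.2). None of these passed the test in limma (adjusted p = 0.71 for each gene named in this paragraph).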

How the data were processed

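The deposited intensities, on a linear scale, came from 6 one-colour Illumina mouse arrays. Per the labels' protocols a service laboratory ran the arrays. The submitters' processing notes name BeadStudio without a version, and neither background method nor normalization is stated in the sources used here. All deposited columns share a minimum of -31 and a maximum of 37007.2, so differences in total RNA cannot be seen. The number of arrays and the signal over the floor limit precision.

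Probes were named by the platform annotation (34885 with 1 symbol, 18 with several, 10378 unlisted). Every probe above 32 on at least 1 array (18270) was fitted as its own feature on log2(value, floor 32). The fit used limma 3.58.1 (lmFit, eBayes) in R 4.3.3 and Benjamini-Hochberg adjustment over all these probes (threshold 0.05). It was also run on simulated data that gave every probe the same SD, which does not show how it performs at the scatter of these arrays. "At least" folds are the mean of one group over the floor where the other lies wholly at it. "Alternatives" are the 17 settings of the closing section.

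Values are given for probes whose groups do not overlap, the smallest p of each class and direction, 15 core genes, probes above the floor on all arrays, genes with probes of opposite sign, and up to 2 probes per related list. Members, lists and rules were chosen with earlier results of these data known. Sequences and coordinates of probes were not used here.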

Additional observations from a re-analysis of the deposited data

How the results depend on the processing

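Of 17 alternatives, 0 called a chromatin probe. Over all features, 2 were called with a floor of 64 and 1 each after averaging probes per gene, with no filter and the ordinary t statistic. Same-numbered replicates deviated together only at r = 0.03 to 0.04, so the numbers were not taken to pair samples, and with the replicate block 0 features and 0 chromatin probes were called. Non-overlapping chromatin probes that were higher in Klf4-deficient arrays, 2 in the main setting, numbered 4 with a floor of 16, 5 when 16 was added instead of a floor, and 3 to 8 on leaving out 1 array (4 without WT replicate 2 or Klf4-deficient replicate 2, 8 without Klf4-deficient replicate 3). Those that were lower, 4 in the main setting, numbered 2 with a floor of 64, 7 with the offset, and 4 to 11 on leaving out 1 array (11 without WT replicate 2). With fewer arrays, groups of any probe overlap less often. Without WT replicate 3 the shares of all tested probes rose from 2.13% to 3.36% (higher) and from 0.958% to 5.1% (lower). Shares over all probes are not given for the other settings, so these counts are not a result about chromatin genes. The median over chromatin probes was -0.11 with probes above 32 on at least 3 arrays and otherwise differed from 0.07 by less than the spread between arrays (-0.08 to 0.19 on leaving out 1 array). Of 53 named probes with a test, 39 kept their sign wherever a value could be had (a probe wholly at the floor of 64 has none) and none was called. Settings that change only the test statistic or add the replicate block leave every difference and median as it is. Those that only choose which probes are tested leave the difference of each probe as it is. Signs could not turn in these settings, so only the others bear on the count of 39. Signs turned for Kdm3b (-0.072) and Kdm7a (-0.32) with the mean of probes, Setd7 (0.19) with a floor of 64, Kdm5a with a floor of 16 (-0.18) and with the offset (-0.11), and Setd3 (0.34) with the offset. Leaving out 1 array gave -1.54 to 0.10 for Chd4 ILMN_2697652, -0.96 to 0.64 for Dnmt1, -0.069 to 1.44 for Dnmt3b, -0.23 to 0.17 for Hdac3, -0.21 to 0.14 for Kdm2a, -0.62 to 0.91 for Kdm3b, -0.61 to 0.61 for Kdm5a, -0.090 to 0.95 for Kdm7a, -1.17 to 0.58 for Kmt2b, -0.96 to 0.70 for Kmt2d, -0.38 to 0.12 for Setd3, -0.59 to 0.25 and -1.30 to 0.43 for the Setd7 probes, and -0.047 to 0.053 for Smarca4. Their causes were not tested. Signal limits these results, since 58.3% of tested chromatin values lay at the floor.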
